A study of Danio rerio with 2 samples.

Results

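The scavenger receptor genes stab1, stab2, mrc1a, mrc1b, lyve1a and lyve1b were described across the single cells of the zebrafish tail. They were chosen by symbol, and all 6 of the 6 listed genes were found among 26764 gene symbols, each as 1 feature with 1 identifier. These were ENSDARG00000076484 for stab1, ENSDARG00000045748 for stab2, ENSDARG00000102100 for mrc1a, ENSDARG00000038822 for mrc1b, ENSDARG00000075833 for lyve1a and ENSDARG00000062483 for lyve1b. Their levels and their co-detection were read in endothelial cells and in blood cells, which were gated on other genes.

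Stabilins are large transmembrane receptors that carry hyaluronan, modified lipoproteins and other waste from the blood into the cell, and in zebrafish embryos they mark veins that clear such material. Mannose receptors are C-type lectins that take up glycoproteins and collagen fragments. Lyve1 proteins bind hyaluronan through a link domain, and in zebrafish lyve1b labels veins and lymphatic vessels. In mammals, liver sinusoidal endothelium carries the same receptor families, and macrophages express stabilin-1 and the mannose receptor, so macrophage markers are given beside the levels.

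Embryos of strain AB with genotype TgBAC(isl1:TagRFP);Tg(dab2:EGFP) were used at 48 h post fertilisation. Both libraries came from tails cut behind the end of the yolk. Live TagRFP+/EGFP+ cells made the library labelled isl1-derived, and TagRFP-/EGFP+ cells made the library labelled other. Every sorted cell had therefore passed a gate on the reporter of dab2, a clathrin adaptor gene of veins, and arterial cells in these libraries are those that passed it. The labels do not say how many embryos were pooled. Each fraction is a single library, and so the report gives no p-value and no spread between replicates. A difference between libraries cannot be told apart from a difference between these preparations.

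The libraries held 2072 and 730 barcodes, with 26865577 and 5698957 UMIs (unique molecular identifiers, 1 per captured RNA molecule), and shared 0 barcodes. Of these, 2022 and 704 cells were kept, with median depths of 9780 and 6615.5 UMIs. Throughout, the first value belongs to the library labelled isl1-derived and the second to the library labelled other. Levels of the reporter transcript and of isl1 were opposite to what the labels name. TagRFP stood at 2.71 and 129 CPM (UMIs of a gene scaled to a common total of all UMIs in the same cells, not divided by gene length) over all kept cells, and isl1, which drives that reporter, at 1.96 and 130 CPM. In endothelial cells TagRFP stood at 5.59 and 26.6 CPM and isl1 at 2.32 and 19.6 CPM, so the gap was smaller there. A cluster led by the neural markers slc18a3a and slc5a7a held 0 and 22 cells, and its part in the levels over all cells was not tested. File naming by the depositors likewise points the other way from the sample labels. Libraries are named by their labels, and every direction between them carries this conflict.

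Endothelial cells were those with at least 10 UMIs per 10000 of cdh5, tie1, egfl7 and clec14a together, which gave 1375 and 583 cells. Blood cells were those with at least 3 UMIs of myb, runx1 and gata2b together, which gave 547 and 52 cells. Both gates held 72 and 13 cells, and neither gate 172 and 82 cells. Without the genes that set the gates, 13 other endothelial markers summed to 4076 and 4013 CPM in cells of the endothelial gate alone and to 520 and 590 CPM in cells of the blood gate alone. The 10 other blood progenitor markers summed to 614 and 666 CPM in the former and to 1511 and 1545 CPM in the latter.

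All 6 receptor genes were higher in endothelial than in blood cells, mrc1b least so. The stabilin gene stab2, whose protein clears hyaluronan, stood at 1169 CPM in 1303 cells of the endothelial gate alone and at 38.5 CPM in 475 cells of the blood gate alone in the library labelled isl1-derived. It stood at 2629 and 158 CPM in 570 and 39 such cells of the library labelled other. The ratios were 30.3 (95% interval from counting error 27.7 to 33.3) and 16.7 (14.0 to 19.9). The intervals of the summed levels in the 2 gates did not overlap in either library. Single cells did overlap. No stab2 UMI was found in 465 of 1375 and 58 of 583 endothelial cells, while single cells of the blood gate alone held up to 35 and 60. The intervals cover counting error only, not the spread between cells, embryos or preparations.

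The other stabilin gene, stab1, was 35.9 and 20.3 times higher in endothelial cells, the mannose receptor gene mrc1a 35.4 and 19.7 times, and the hyaluronan receptor gene lyve1b 35.9 and 21.6 times. For its paralogue lyve1a the ratios were 73.9 (48.1 to 120) and 5.07 (2.79 to 10.3), on 21 and 11 blood cell UMIs. The second mannose receptor gene, mrc1b, had the smallest ratios, 4.66 (3.92 to 5.57) and 2.92 (1.76 to 5.20). Of the 6 genes, 6 were at least 1.5-fold higher in endothelial cells of each library, a size used for description and not a call of change. Among all genes with at least 100 UMIs, 45.4% and 51.7% were as much higher, so the count says little and the sizes more. The median log2 ratio of the 6 genes was 5.2 and 4.2, beside 0.40 and 0.64 over all genes.

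A few cells held much of the receptor RNA in the blood gate. In the library labelled other, 3 of the 39 cells of the blood gate alone held 77.4% of the 133 stab2 UMIs and 80% of the 55 mrc1a UMIs. For the 475 such cells of the first library, the 3 leading ones held 20.5% and 36.2%. Without the 3 leading cells of each sum the stab2 ratios of endothelial over blood cells were 37.2 (33.6 to 41.2) and 64.3 (45 to 95.4). Cells in both gates were intermediate, with stab2 at 505 and 824 CPM.

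**Figure D1:**
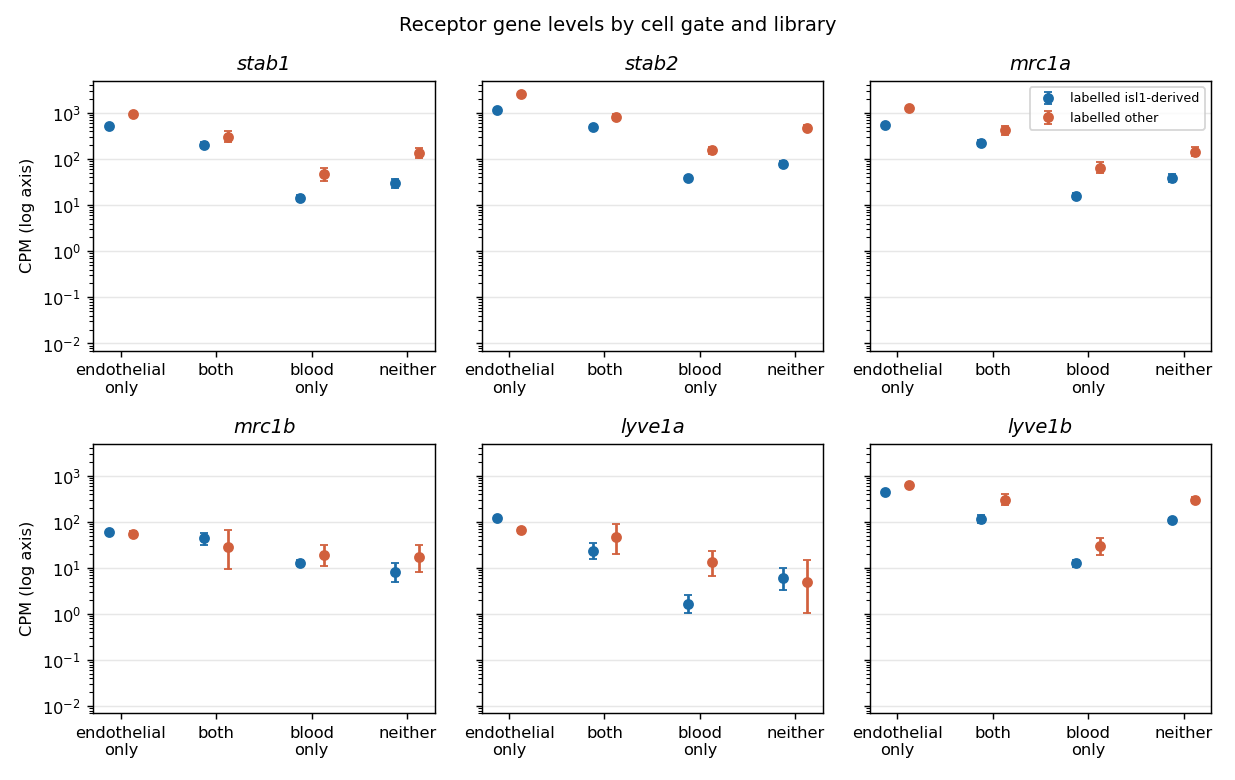
Level of each receptor gene (CPM, log axis) in cells of the endothelial gate alone, of both gates, of the blood gate alone and of neither gate, by library. Points are sums over cells and bars 95% exact Poisson intervals, hidden where smaller than the point. Each gene is highest in the endothelial gate, and mrc1b falls least toward the blood gate, from 59.8 to 12.8 CPM in the library labelled isl1-derived.

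Macrophage markers were scarce in both gates. In the endothelial gate, 9 and 4 of the 13 listed markers had any UMI, and mpeg1.1, c1qa and c1qb, which are expressed by macrophages, stood at 0 in both gates of both libraries. The markers summed to 27.7 and 58.7 CPM in the endothelial gate, where slc7a7, an amino acid transporter gene that also leads an endothelial cluster described below, gave 296 of 322 and 238 of 245 UMIs. Their part in the receptor levels was not tested. In the blood gate they summed to 25 and 30.5 CPM, where ctss2.1 and slc7a7 gave 220 and 104 of 343 UMIs in the library labelled isl1-derived and 5 and 25 of 31 UMIs in the library labelled other. The markers mfap4 and marco had 1 and 3 UMIs in the endothelial gate of the library labelled isl1-derived, against 12893 of stab2.

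Shares of blood cells with an stab2 or mrc1a UMI overlapped, once thinned, those of cells assumed to lack the genes. An stab2 UMI was found in 40.2% of the cells of the blood gate alone in the library labelled isl1-derived, at a median depth of 26335 UMIs. An erythroid-like cluster of 80 cells, which was assumed to lack the gene, had one in 33.8% of cells at a median depth of 29747 UMIs. With every cell thinned to 2000 UMIs, the shares were 6.53% (exact binomial interval 4.48% to 9.14%) and 5.00% (1.38% to 12.3%). The thinned shares for mrc1a were 1.26% and 1.25%. Of the erythroid-like cells 87.5% were themselves in the blood gate, so this comparison sets a group partly against itself. It cannot show whether other blood cells stand above them. In the blood progenitor-like clusters described below, thinned stab2 shares were 10.6% (7.55% to 14.4%) and 4.44% (1.65% to 9.42%). Those of mrc1a were 3.24% (1.63% to 5.73%) and 1.48% (0.180% to 5.25%). These intervals overlapped those of the erythroid-like cells. The part of free RNA in any of these shares was not tested. Levels in CPM were higher in blood progenitor-like clusters than in the erythroid-like one for stab2, as given below. For mrc1a they were 41.4 and 10.4 CPM in the progenitor-like clusters and 8.54 CPM in the erythroid-like one. The intervals of the last 2 values overlapped.

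The mannose receptor gene mrc1b took a larger share of the receptor UMIs in blood than in endothelial cells. It made up 2.07% (1.92% to 2.24%) of the UMIs of the 6 genes in the endothelial gate alone and 13.4% (11.5% to 15.4%) in the blood gate alone of the library labelled isl1-derived. For the second library these shares were 0.983% and 5.71% (3.30% to 9.11%), the latter on 16 UMIs, of which 3 cells held 12. The shares of stab2 in the same gates had overlapping intervals, at 40.5% and 40.2% in the first library and 46.6% and 47.5% in the second. Those of stab1, mrc1a, lyve1a and lyve1b were lower in blood cells of the first library, with intervals apart. In the second library the lyve1a share was also larger in blood cells, at 1.17% (1.04% to 1.32%) and 3.93% (1.98% to 6.92%). The latter rested on 11 UMIs, all in 3 cells.

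Detection of mrc1b also differed among blood cell clusters of similar depth. In a blood progenitor-like cluster of 344 cells, led by immune genes such as il15ra and irf10, an mrc1b UMI was found in 24.4% of cells (20% to 29.3%), and in another such cluster of 137 cells, led by runx3 and histone genes, in 20.4% (14.0% to 28.2%). In the erythroid-like cluster it was found in 1.25% (0.0316% to 6.77%), that is in 1 of 80 cells. The median depths were 22132, 33566 and 29747 UMIs. Shares with an stab2 UMI in these 3 clusters were 40.4%, 45.3% and 33.8%. Levels of mrc1b were 19.1, 10.6 and 0.427 CPM, and those of stab2 88.9, 30.7 and 14.1 CPM. Both genes were thus lowest in the erythroid-like cluster, and the gap was wider for mrc1b.

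Per UMI of the 6 genes over both libraries, mrc1b made up 9.20% (7.81% to 10.7%) and 14.3% (10.7% to 18.6%) in the progenitor-like clusters and 1.28% (0.0325% to 6.94%) in the erythroid-like one, on 143, 46 and 1 UMIs. The libraries differed in the larger progenitor-like cluster, at 10.9% (9.21% to 12.8%) and 3.19% (1.60% to 5.63%), the latter on 11 UMIs. In the smaller one they had 17.1% (12.4% to 22.8%) and 8.57% (3.99% to 15.6%). A neutrophil-like cluster of 27 cells had 7 mrc1b UMIs, 16.7% (6.97% to 31.4%) of its receptor UMIs. Thinned to 2000 UMIs the shares of cells with an mrc1b UMI were 3.54% (1.84% to 6.10%), 2.96% (0.813% to 7.41%) and 0 of 80 cells, which allows up to 3.75%. The gap was therefore not detectable at that depth. Blood cells with an mrc1b UMI carried stab2 in 43.4% of cases (33.5% to 53.8%), and those without in 39.4% (34.4% to 44.5%), in the library labelled isl1-derived.

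Within the endothelium all 6 genes were low in arterial cells. Arterial-marked cells had at least 10 UMIs per 10000 of dll4, hey2, efnb2a, cxcr4a, gja5a, gja5b and flt1, genes of arterial Notch and connexin programmes, and numbered 513 and 88, against 862 and 495 other endothelial cells. For the library labelled isl1-derived, stab2 stood at 196 CPM in arterial-marked and 1612 CPM in other endothelial cells. The corresponding levels in the second library were 590 and 2883 CPM. The ratios were 0.121 (0.113 to 0.130) and 0.205 (0.184 to 0.228), with no overlap between the classes in either library.

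The stabilin gene stab1 differed least between these classes, with ratios of 0.241 (0.222 to 0.262) and 0.265 (0.226 to 0.310). The ratios of mrc1a were 0.0957 and 0.158, and those of lyve1b 0.0474 and 0.0973. The lowest were those of mrc1b, 0.0354 (0.0188 to 0.0610) and 0.0798 (0.0163 to 0.236), and of lyve1a, 0.0292 (0.0180 to 0.0449) and 0.0440 (0.00530 to 0.160). The last 2 genes had 3 and 2 UMIs in arterial-marked cells of the library labelled other. In both libraries 6 of 6 genes were at least 1.5-fold lower, beside 13.3% and 15.1% of all genes. The gene dab2, whose reporter was used for the sort, had ratios of 0.187 and 0.255. In cells thinned to 2000 UMIs, stab2 was found in 20.8% of arterial-marked and 68.5% of other endothelial cells of the first library, and in 36.1% and 87.7% of those of the second. Macrophage markers summed to 3.38 and 8.33 CPM in arterial-marked and to 41.1 and 67.1 CPM in other endothelial cells. Of these UMIs slc7a7, which also leads an endothelial cluster, gave 7 of 14 and 5 of 5 in arterial-marked cells. In other endothelial cells it gave 289 of 308 and 233 of 240. The part of the macrophage markers in these ratios was not tested. Among endothelial cells, 122 and 27 had an arterial score between 8 and 12 per 10000, near the limit.

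The fall was graded along the arterial score. From the cells with under 2 to those with at least 20 arterial UMIs per 10000, stab2 went from 2323 to 84.6 CPM and from 3382 to 475 CPM. Over the same span stab1 went from 954 to 127 CPM and from 1204 to 248 CPM, and mrc1a from 1144 to 40 CPM and from 1677 to 159 CPM. The 4 genes stab1, stab2, mrc1a and lyve1b were lower in every bin than in the bin before it, in both libraries. For stab1 and lyve1b in the library labelled other the intervals of the last pair of bins overlapped, as did those of lyve1b at scores of 2 to 5 and 5 to 10, at 491 to 586 and 401 to 510 CPM. The other 2 genes did not fall at every step there. From under 2 to between 2 and 5 arterial UMIs mrc1b went from 63.4 to 87.4 CPM, and over the last pair of bins it had 0 and 3 UMIs and lyve1a 1 and 1.

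**Figure D2:**
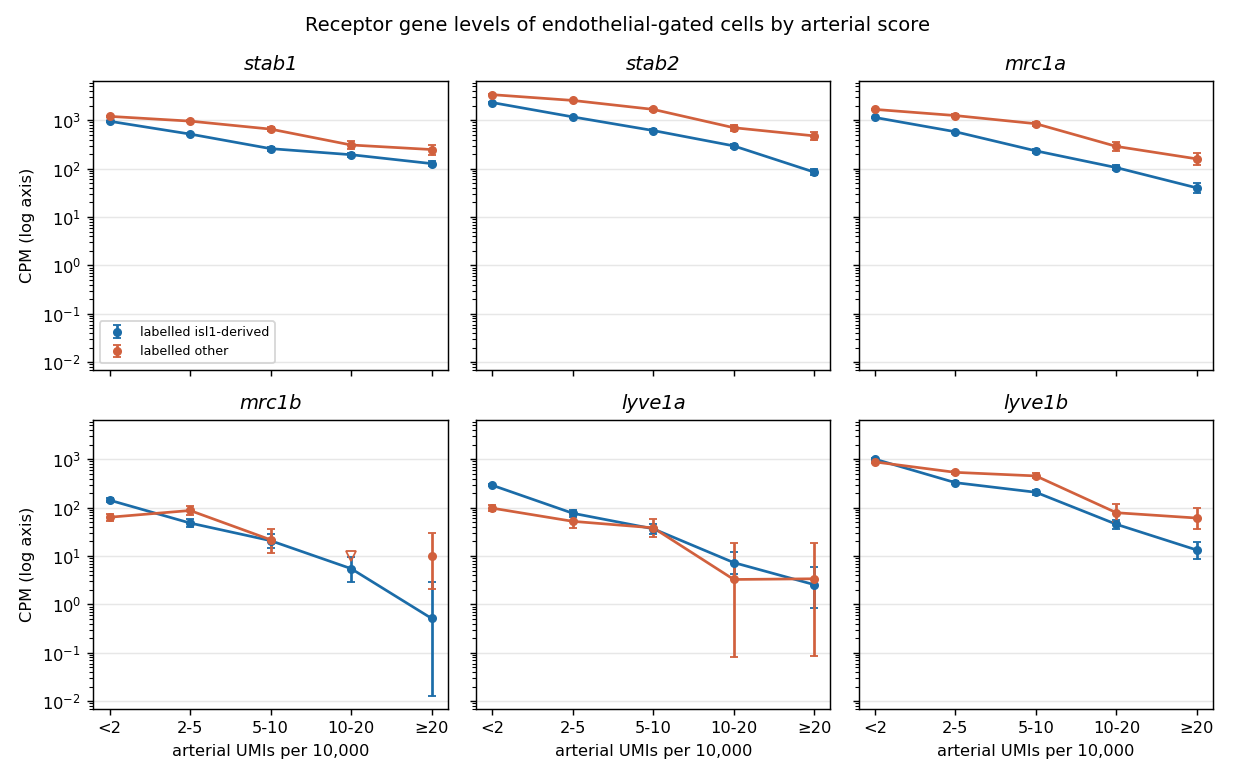
Level of each receptor gene (CPM, log axis) in endothelial cells grouped by their arterial score (UMIs of 7 arterial genes per 10000), by library. Points are sums over cells, bars 95% exact Poisson intervals, and the open triangle marks the upper limit of 3 counts where no UMI was found. The levels of stab2 run from 2323 down to 84.6 CPM in the library labelled isl1-derived.

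Cells were then clustered with the 6 genes left out, which gave 16 clusters. The receptor genes were highest in a small set of them. The cluster led by scn5lab, a sodium channel gene, and wnt9a held 79 and 84 cells and had the highest levels of stab1, stab2, mrc1a and mrc1b in both libraries. Its stab2 level was 6571 CPM (6298 to 6853) and 6711 CPM (6452 to 6978), so the libraries overlapped there. Its median depth was 3781 UMIs, the lowest of the clusters. A stab2 UMI was found in all 145 of its cells that could be thinned to 2000 UMIs, and an mrc1b UMI in 40% of them.

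Next came a cluster led by crygn2, sost, slc7a7, renbp and npl, the last a gene of sialic acid breakdown, with 210 and 149 cells. It had stab2 at 2864 and 3588 CPM, mrc1a at 1368 and 1650 CPM, and lyve1b at 1436 and 1168 CPM. A cluster led by tnnt3a, a muscle gene, stayed unnamed and had lyve1b at 1280 and 1195 CPM in 94 and 47 cells. For lyve1b these 2 clusters headed the order with overlapping intervals, and the scn5lab cluster stood lower, at 777 CPM over both libraries. The order of the hyaluronan receptor gene lyve1b thus differed from that of the stabilins.

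A cluster led by hoxc13b, hoxc13a and hoxa13a, genes of the most posterior body, separated the 2 mannose receptor genes. Over both libraries (362 cells) it held mrc1a at 621 CPM and an mrc1a UMI in 85.9% of cells. The paralogue mrc1b stood at 7.0 CPM (4.33 to 10.7) there, with a UMI in 3.31% of cells. The split was not particular to this cluster. A cluster of 40 cells led by id2b and krt94, described below, had mrc1a at 474 CPM and mrc1b at 7.47 CPM, on 2 mrc1b UMIs. In the cluster led by crygn2 mrc1a stood at 1368 and 1650 CPM and mrc1b at 197 and 79.3 CPM in the 2 libraries. The mrc1b share of receptor UMIs was 0.239% and 0.211% in the hox13 cluster, with overlapping intervals, and 2.77% (2.51% to 3.06%) and 1.01% (0.828% to 1.23%) in the crygn2 cluster.

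At the low end of the endothelial clusters stood the arterial ones and a cluster led by tnr and ldlrad2. A cluster led by zic2b and esm1, a tip cell gene, had stab2 at 81.7 and 599 CPM in 325 and 32 cells. A cluster led by gja5a had 241 and 236 CPM in 186 and 35 cells. The tnr cluster, with 79.2% of its cells in the endothelial and 49.4% in the blood gate, had 273 and 410 CPM in 129 and 39 cells. It overlapped the gja5a cluster in the first library and stood below the zic2b cluster in the second. In the zic2b cluster stab1 made up 49.9% (46.1% to 53.7%) of the receptor UMIs in the first library but 22.8% (17.6% to 28.8%) in the second, where stab2 led at 53.4%. In the crygn2 cluster it made up 15.6% in each. Blood clusters were not everywhere below the arterial ones. The larger progenitor-like cluster had stab2 at 73.2 and 289 CPM, with intervals that overlapped those of the zic2b cluster in the first library and of the gja5a cluster in the second. A cluster led by kera and krt5, which stayed unnamed, had 70.9 and 60.5 CPM.

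**Figure D3:**
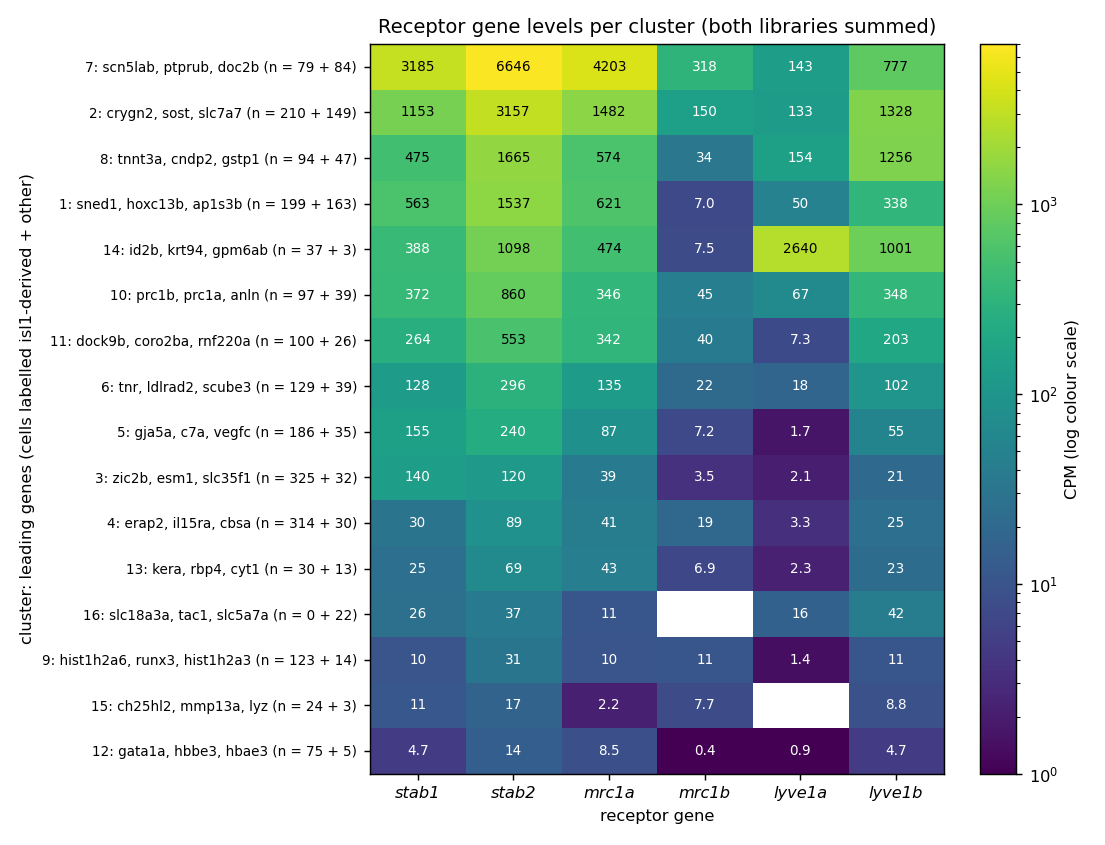
Level (CPM, log colour scale) of the receptor genes in 16 clusters made without them, both libraries summed, ordered by stab2. Each row gives its leading genes and its cells in the libraries labelled isl1-derived and other, and white marks no UMI. The scn5lab cluster leads for stab1, stab2, mrc1a and mrc1b, the id2b and krt94 cluster for lyve1a at 2640 CPM, and the crygn2 cluster for lyve1b at 1328 CPM.

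In the library labelled isl1-derived, the hyaluronan receptor gene lyve1a was concentrated in a single small cluster. This cluster, led by id2b and krt94, held 37 and 3 cells and so lay mostly in the library labelled isl1-derived. Over both libraries lyve1a stood at 2640 CPM (2449 to 2842) there and at 154 CPM (124 to 190) in the next cluster. It held 707 of the 1323 endothelial lyve1a UMIs of the library labelled isl1-derived, or 53.4%, in 2.69% of the endothelial cells. Among its 37 cells 19 had a lyve1a UMI, with between 2 and 140 UMIs and a median of 29.0, and its 3 cells of the library labelled other had 0. In that library lyve1a was highest in the scn5lab and crygn2 clusters, at 141 CPM (106 to 184) and 121 CPM (103 to 142), and the crygn2 cluster held 159 lyve1a UMIs, beside 273 over the endothelial gate.

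The same cluster had the highest level of prox1a, the transcription factor gene that specifies lymphatic endothelium, at 209 CPM (158 to 272) and with a UMI in 25% of cells. A cluster led by dock9b and coro2ba had prox1a at 62.9 CPM and in a similar share of cells, 23.0%, but lyve1a at 7.29 CPM. The id2b and krt94 cluster was also highest for cdh6, at 478 CPM (399 to 568). Its level of nrp2b, a co-receptor gene of lymphatic growth, was 687 CPM (591 to 794), and that of the scn5lab cluster 787 CPM (723 to 855). The receptor gene for lymphatic growth signals, flt4, was higher in 4 other clusters than its 444 CPM (368 to 532) here. Among those 4, the hox13 and crygn2 clusters had overlapping intervals, at 467 CPM (443 to 492) and 462 CPM (439 to 486). The other genes of the venous and lymphatic list ranked from 3 to 8 among the clusters here. The genes nr2f2, nrp2a and mafbb ranked 3, at 254, 213 and 194 CPM, and sox7 ranked 4. The interval of mafbb (145 to 255) overlapped that of the crygn2 cluster, at 214 CPM (198 to 231). The genes ephb4a and tek ranked 5, sox18 (52.3 CPM) and tfec (22.4 CPM) 6, and mafba and vegfc 8. The level of mafba was 52.3 CPM here and 322 CPM in the crygn2 cluster. Of the other receptors, lyve1b stood at 1001 CPM and stab2 at 1098 CPM, while mrc1b stood at 7.47 CPM on 2 UMIs. Here stab2 made up 19.6% (17.6% to 21.7%) of the receptor UMIs and lyve1a 47.1%, whereas over both libraries stab2 made up between 36.7% and 49.3% in the 9 endothelial clusters compared between libraries below.

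The genes were found together in the same cells. With endothelial cells thinned to 2000 UMIs (1313 and 553 cells), an mrc1a UMI was found in 64.6% (60.8% to 68.2%) and 79.2% (75.1% to 82.9%) of cells with stab2 and in 9.82% (7.64% to 12.4%) and 26.1% (18.2% to 35.3%) of cells without. Almost every cell with mrc1b also had stab2, 94.4% and 95.7%, against 46.4% and 78.5% of cells without mrc1b. Of the cells with lyve1a, 90.9% (60 of 66) and 100% (32 of 32) had stab2. For the 30 ordered pairs the intervals of the shares with and without the partner were apart in 28 and 22 pairs. Detection also rises with the RNA captured from a cell and with cell type, which all genes share, and thinning removes only differences in depth.

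The pair mrc1b and lyve1a overlapped in both libraries, while the other overlapping pairs, all in the library labelled other, were mrc1b with stab1, mrc1b with lyve1b and lyve1a with lyve1b. In the library labelled isl1-derived lyve1a was found in 7.41% (3.25% to 14.1%) of cells with mrc1b and in 4.81% (3.67% to 6.18%) of cells without. The second library gave 4.26% (0.520% to 14.5%) and 5.93% (4.04% to 8.36%). The intervals of this pair also overlapped at 4000 UMIs per cell. Over full-depth cells the correlation of log2(UMIs per 10000 + 1) was -0.014 over 1375 cells and 0.044 over 583 cells for this pair. It was 0.85 and 0.79 for stab2 with mrc1a and 0.78 and 0.78 for stab1 with stab2.

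**Figure D4:**
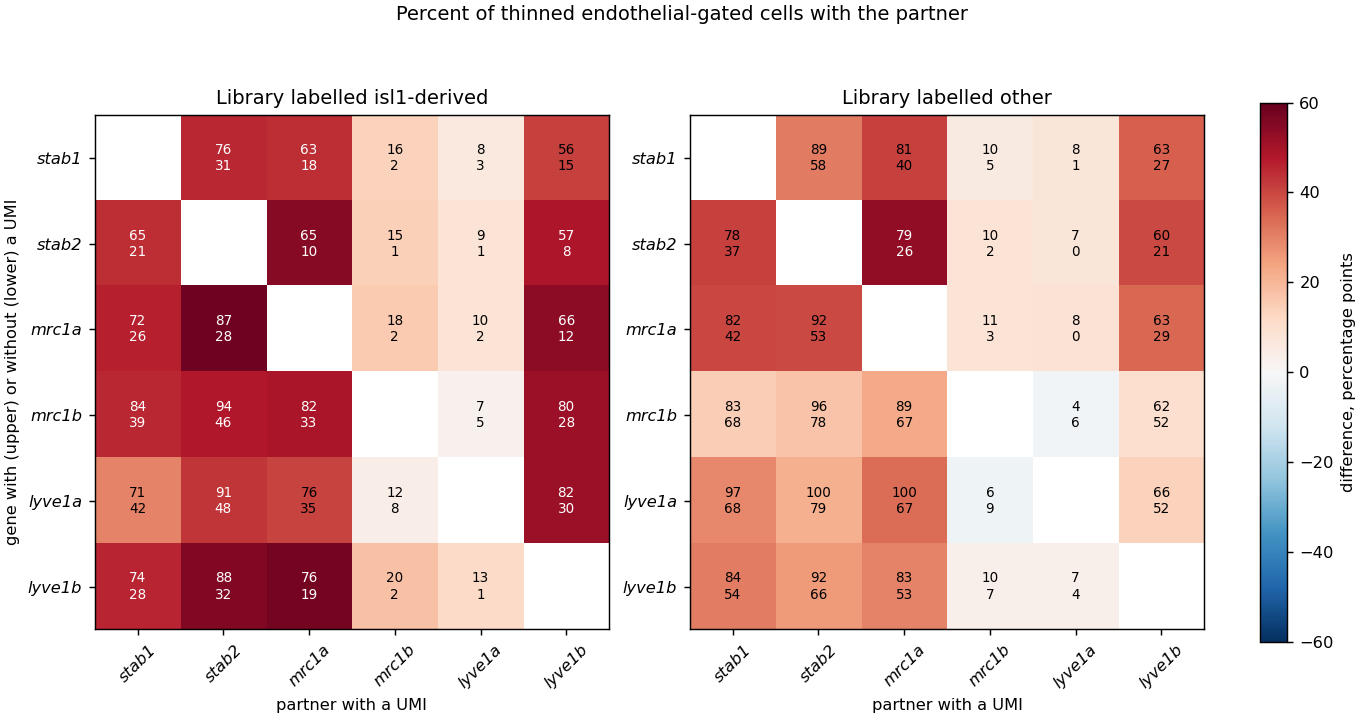
Percent of endothelial cells, thinned to 2000 UMIs, with a UMI of the partner (column) among cells with (upper number) and without (lower number) a UMI of the gene (row), by library. The colour is the difference in percentage points. Nearly all differences are positive, and the cells for mrc1b with lyve1a are near 0 or below it.

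Counted per cell, 34.5% (31.9% to 37.1%) and 65.1% (61.0% to 69.1%) of thinned endothelial cells had 3 or more of the 6 genes, and 34.4% and 8.86% had none. Of the arterial-marked cells 3.80% and 9.64% had 3 or more, and of the other endothelial cells 53.4% and 74.9%. All 6 were found in 6 and 2 cells. In cells of the blood gate alone 1.05% (5 of 475) and 5.13% (2 of 39) had 3 or more.

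Genes with the most similar pattern were sought by the mean of both libraries' correlation over endothelial cells, among 4686 genes. The leading gene for stab1, stab2 and mrc1a was dab2, which bears the sorting reporter, with mean correlations of 0.67, 0.79 and 0.72. Among the next 4 genes for each of them were prcp, a lysosomal peptidase gene, at 0.63, 0.68 and 0.69, and pxk at 0.65, 0.66 and 0.66. For lyve1b the order was lgmn, an endosomal protease gene (0.68), glula (0.67), dab2 (0.67), ctsla (0.64) and GFP, the transcript of the sorting reporter (0.61). The leading gene for mrc1b was the chemokine gene cxcl12a (0.49), and for lyve1a the claudin gene cldn11a (0.41). The median over all compared genes was between -0.011 and 0.0032 for the 6 genes. The points of each correlation are cells that share a library, a depth and a cell type, and no p-value was computed.

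Between the libraries, stab1, stab2 and mrc1a were lower in the endothelial cells labelled isl1-derived. For stab1 the level was 492 CPM (479 to 505) and 938 CPM (908 to 967). That of stab2 was 1108 CPM (1089 to 1127) and 2553 CPM (2505 to 2602), and that of mrc1a 528 CPM (514 to 541) and 1253 CPM (1219 to 1287). Divided first by second library, the ratios were 0.524 (0.503 to 0.546), 0.434 (0.423 to 0.445) and 0.421 (0.406 to 0.437). The gene dab2 had a ratio of 0.487.

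The other 3 genes did not share this size or this direction. The level of lyve1b was 422 and 626 CPM, a ratio of 0.673 (0.642 to 0.706), just inside 1.5-fold. That of mrc1b was 58.3 and 54.4 CPM, a ratio of 1.07 (0.921 to 1.25), with overlapping intervals. That of lyve1a was 114 and 65.4 CPM, a ratio of 1.74 (1.53 to 1.99). Of the 6 genes 3 were at least 1.5-fold lower, beside 7.77% of 9498 genes, and 1 was as much higher, beside 5.13%.

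Counts of all genes leaned on the scaling. As scaled to total UMIs, 487 genes were at least 1.5-fold higher and 738 lower, a split of 39.8% higher. With TMM scaling, which moved every log2 ratio up by 0.18, the counts were 949 and 338, a split of 73.7%. The median log2 ratio of the 6 genes was -0.75, beside -0.063 over all genes. With TMM scaling the ratios of stab1, stab2 and mrc1a were 0.593, 0.491 and 0.476, still below 1.

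The libraries differed in their mix of endothelial cells. Arterial-marked cells were 513 of 1375 and 88 of 583, and the scn5lab cluster held 3.91% and 11.9% of the kept cells. Within arterial-marked cells the ratios of stab1, stab2, mrc1a and lyve1b were 0.584, 0.332, 0.331 and 0.432. These were the 4 genes with at least 100 UMIs there, and all 4 were at least 1.5-fold lower, beside 9.88% of 5273 genes, while 0 were higher, beside 6.43%. Within the other endothelial cells they were 0.642, 0.559, 0.545 and 0.886, while mrc1b had 1.42 (1.21 to 1.65) and lyve1a 2.29 (2.01 to 2.62). Of the 6 genes 3 were at least 1.5-fold lower in these other cells, beside 5.41% of 8355 genes, and 1 was as much higher, beside 4.91%.

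Averaged over clusters the gap was smaller, but not in each. CPM was averaged with equal weight over the 9 clusters that held at least 20 endothelial cells of each library. The ratios of these means were 0.933 for stab1, 0.770 for stab2, 0.800 for mrc1a, 1.04 for lyve1b, 1.60 for mrc1b and 1.85 for lyve1a. In that setting, chosen after seeing the data, 0 of the 6 genes were 1.5-fold lower, beside 5.17% of 9366 genes, and 2 were higher, beside 4.25%. The ratio of mrc1a was below 1 in 9 of 9 clusters, that of stab2 in 8 and that of stab1 in 8. Intervals lay below 1 in 6 clusters for mrc1a, in 7 for stab2 and in 6 for stab1. The share of all genes with a ratio below 1 in each cluster was not computed. The means lean on the scn5lab cluster, which had the highest levels of stab1, stab2 and mrc1a. Its ratios were 1.21 (1.12 to 1.32) for stab1, 0.982 (0.927 to 1.04) for stab2 and 0.964 (0.896 to 1.04) for mrc1a. The stab2 ratio was 0.136 (0.109 to 0.172) in the zic2b cluster and 0.322 (0.283 to 0.367) in the mitotic cluster led by prc1b. For mrc1a these 2 clusters had 0.180 and 0.345, also lower than over all endothelial cells. The lyve1b ratio ran from 0.181 to 2.24, with intervals below 1 in 4 clusters and above 1 in 3.

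For mrc1b the ratio was 2.48 (1.98 to 3.12) in the crygn2 cluster and 2.06 (1.56 to 2.75) in the scn5lab cluster, and below 1 in 4 of 8 clusters, from 0.185 to 0.775, with intervals that included 1. For lyve1a it ranged from 1.02 to 4.10 in the 6 clusters with a UMI in both libraries. The ratio of lyve1a over all endothelial cells depended on the small id2b and krt94 cluster, which is not among those 6. Without that cluster it was 0.825 (0.715 to 0.955), an alternative chosen after seeing the data. This pooled value lies below each of the 6 ratios within clusters, so it shows no reversal within them. The libraries differed in their mix of clusters, and the crygn2 cluster held 10.4% and 21.2% of kept cells. Without the id2b and krt94 cluster 0 of the 6 genes were 1.5-fold higher, beside 5.07% of 9429 genes. In that setting 4 were lower, lyve1b among them at 0.650, beside 7.87%.

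**Figure D5:**
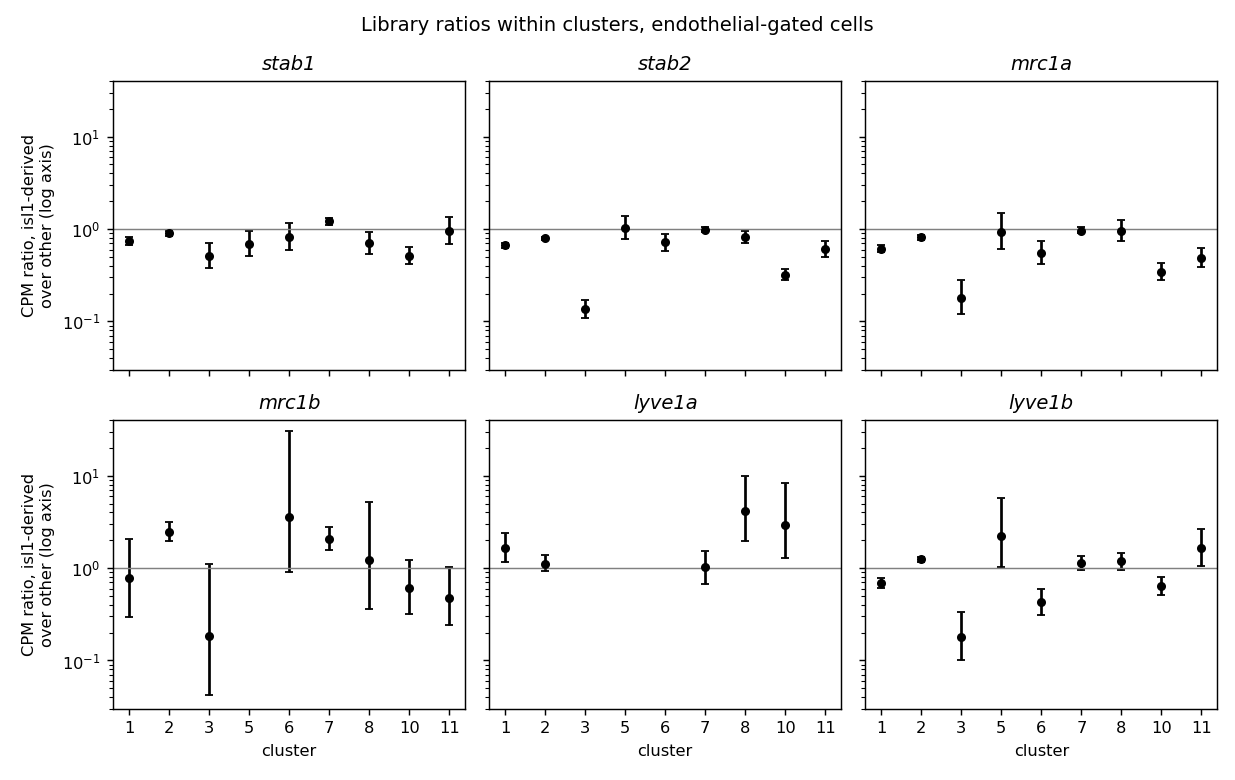
CPM in the library labelled isl1-derived divided by that in the other one (log axis) in each cluster with at least 20 endothelial cells of each library. Points are ratios of sums with at least 10 UMIs and a UMI in each library, bars are 95% exact conditional binomial intervals, and the grey line is a ratio of 1. Most stab1, stab2 and mrc1a points lie below 1, with the lowest stab2 ratio of 0.136 in cluster 3, led by zic2b and esm1, and cluster 7 is that of scn5lab.

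In the blood gate the receptor genes were also lower in the library labelled isl1-derived. This gate includes the 72 and 13 cells in both gates, which held 535 of its 1022 and 144 of its 277 stab2 UMIs. In cells of the blood gate alone stab2 stood at 38.5 and 158 CPM. Their 3 leading cells left 387 of 487 and 30 of 133 stab2 UMIs, and 127 of 199 and 11 of 55 mrc1a UMIs. The library ratio of these cells without their leading ones was not computed, so whether the gap holds there is not known. The ratios over the whole blood gate were 0.315 (0.251 to 0.398) for stab1, 0.274 (0.240 to 0.314) for stab2, 0.251 (0.206 to 0.308) for mrc1a and 0.268 (0.208 to 0.348) for lyve1b. For lyve1a it was 0.180 (0.103 to 0.325) and for mrc1b 0.736 (0.469 to 1.21). Of the 6 genes 5 were at least 1.5-fold lower, beside 14.3% of 8077 genes, and 0 were as much higher, beside 5.61%. The count includes lyve1a, whose 46 and 19 UMIs fell under the minimum of 100 set for all genes. Whether free RNA differed between the libraries was not tested. These ratios rested in part on few cells: the 3 leading of the 52 blood cells labelled other held 50% of the stab1, 54.9% of the stab2, 53.5% of the mrc1a and 57.7% of the lyve1b UMIs. Without the 3 leading cells of each sum the ratios over the whole blood gate were 0.456, 0.438, 0.355 and 0.449, still at least 1.5-fold lower. For lyve1a 3 cells held 18 of the 19 UMIs, and without the 3 leading cells of each sum its ratio was 2.13, on 1 UMI in that library. TMM scaling changed the split of all genes from 28.2% to 68.4% higher and moved log2 ratios up by 0.25.

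The other genes of uptake and breakdown were read as lists. They were chosen with earlier results of these data known, and counts between libraries use a size of 1.5-fold. Of the 28 genes listed as other scavenger receptors, 20 were found among the gene symbols. In the endothelial gate 6 of them had at least 100 UMIs. Of these 6, 0 were 1.5-fold higher and 1 lower in the library labelled isl1-derived, beside 5.13% and 7.77% of all genes. That 1 was pla2r1, a relative of the mannose receptors, at 19.3 and 30.2 CPM, a ratio of 0.638 that TMM scaling moved inside 1.5-fold, to 0.721. In arterial-marked against other endothelial cells 3 of the 4 measured members were higher in both libraries, beside 10.0% and 12.2% of all genes, so most of the 28 listed genes gave no value. The collectin gene colec12, a scavenger receptor with a collagen-like stalk, had ratios of 2.63 (2.35 to 2.95) and 5.26 (4.19 to 6.58), and scarb2a, a lysosomal membrane receptor gene, 1.98 and 1.65.

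Genes of the endocytic machinery differed less than the receptors. Of 24 measured members 0 were 1.5-fold higher and 3 lower between the libraries, with a median log2 ratio of -0.24. The 3 lower members included dab2, whose reporter was used for the sort, at a ratio of 0.487. Over all genes 5.13% were higher and 7.77% lower, with a median of -0.063, and the counts of the lists that follow stand beside the same values. The clathrin heavy chain gene cltca stood at 382 and 669 CPM (ratio 0.571), and ap2m1a, of the clathrin adaptor complex, had a ratio of 0.780. Of the lysosomal list 9 of 16 were lower and 0 higher, with a median of -0.63. It included ctsla at a ratio of 0.689 and lgmn at 0.655, whereas the tetraspanin gene cd63 had 1.00. With TMM scaling ctsla and lgmn had 0.780 and 0.741, inside 1.5-fold, and cd63 had 1.14. Of the same list 13 of 16 and 12 of 12 measured members were lower in arterial-marked cells, beside 13.3% and 15.1% of all genes, with lgmn at 0.152 and 0.193.

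The hyaluronan list had 6 of 10 members lower and 0 higher between the libraries, with a median of -0.69. The hyaluronidase genes hyal2a and hyal2b had ratios of 0.556 and 0.504, and hapln3, a gene of a protein that links hyaluronan to proteoglycans, had 1.26. In arterial-marked cells hapln3 was 2.29 and 2.42 times higher, and hyal2b had ratios of 0.330 and 0.217. The venous and lymphatic list had 6 of 14 lower and 2 higher between the libraries. The transcription factor gene tfec had a ratio of 0.439, and prox1a had 2.13 (1.41 to 3.33), on 160 and 27 UMIs. The id2b and krt94 cluster, with 37 and 3 cells, held 56 prox1a UMIs over both libraries, and its part in this ratio was not tested.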

How the data were processed

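The labels describe cells sorted by fluorescence, a 10x v3.1 3' kit and a NovaSeq6000. The authors deposited UMI counts per gene and cell barcode, made with Cell Ranger 5.0.0 on GRCz11 per the submitters' processing notes, while the matrix header names 5.0.1. Counts are 1 per captured molecule and were not normalized. Barcodes with under 500 genes or at least 10% mitochondrial UMIs (42 and 21) and doublets called by Scrublet (8 and 5) were removed. So few calls leave undetected doublets possible.

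UMIs were summed over cells and scaled to CPM. Intervals are 95%, exact Poisson for levels, Clopper-Pearson for shares and conditional binomial for ratios. Counts of all genes needed 100 UMIs in both sums together. A count of 0 allows 3 counts. Shares were compared after thinning to 2000 UMIs, leaving out shallower cells. Clusters came from scanpy 1.11.5 with 2000 variable genes without the 6 genes, 30 components, 15 neighbours and Leiden resolution 1.0. TMM factors came from edgeR 4.0.16 in R 4.3.3, and other steps used Python 3.11.15, numpy 2.4.6, pandas 2.3.3, scipy 1.17.1 and matplotlib 3.10.9. Scripts were tested on simulated data. Alternatives varied filters, scaling, gates, minimums and clustering. The genes named from each list and by likeness followed a written rule (most UMIs, largest ratios, and the 5 highest mean correlations). The members and lists were chosen with earlier results of these data known. Sequences and coordinates were not used here.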

Additional observations from a re-analysis of the deposited data

Results flagged for a closer look

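The library ratio of lyve1a ran in opposite directions in the 2 gates. It was 1.74 (1.53 to 1.99) in endothelial cells, on 1323 and 273 UMIs, and 0.180 (0.103 to 0.325) in blood cells, on 46 and 19 UMIs. With 1 library in each fraction the difference between gates was not tested. Without the cluster led by id2b and krt94 the endothelial ratio was 0.825, and without the 3 leading cells of each sum the blood ratio was 2.13, on 1 UMI in the library labelled other. Within the 6 clusters that had a lyve1a UMI in both libraries the endothelial ratio ran from 1.02 to 4.10, so 0.825 holds for the pooled cells only.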

How the results depend on the processing

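No paired analysis was possible because each fraction is 1 library and no result comes from a test. Of 395 ratios of the 6 genes under alternatives, 265 moved by less than their counting interval, 128 moved further, and 2 at least 1.5-fold from 1 in the reported setting reversed. Ratios nearer to 1 could also cross it, as mrc1b did (1.07, down to 0.964) and lyve1b (0.673, up to 1.04) between the libraries in endothelial cells. Those 2 were the lyve1a library ratios, at 0.825 without the id2b and krt94 cluster (endothelial) and 2.13 without the 3 leading cells of each sum (blood). The former is a pooled value, and within the 6 clusters with a lyve1a UMI in both libraries the ratio ran from 1.02 to 4.10. Among endothelial cells, the genes at least 1.5-fold higher became 2 of 6 and those lower 0 with clusters weighted equally, and 0 were higher without the id2b and krt94 cluster. In blood cells 1 was higher without the 3 leading cells. The last 2 endothelial settings, equal cluster weights and the left-out cluster, were chosen after seeing the data. Endothelial counts of all genes were 1013 higher and 1533 lower with a minimum of 30 UMIs, 203 and 367 with 300, and 949 and 338 with TMM scaling. Blood counts were 1149 and 2365, 141 and 340, and 1081 and 500. Over all settings the endothelial library ratio ranged from 0.417 to 0.770 for stab2 and from 0.964 to 1.60 for mrc1b. The endothelial over blood ratio of stab2 ranged from 19.9 to 51.7 and from 10.1 to 64.3. For lyve1a in the library labelled other no such ratio could be given without the 3 leading cells, which held all its blood UMIs. The 39 cells of the blood gate alone in that library and the low counts of mrc1b and lyve1a in arterial-marked cells limit precision.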
